A study of Rattus norvegicus with 60 samples.

Results

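Livers of rats dosed with PFOA (perfluorooctanoic acid) at 5 mg/kg/day for 7 days were compared with livers of rats dosed at 1 mg/kg/day for 7 days. The comparison addresses which liver genes need the higher dose within the first week. Its members were taken from the treatment labels: 5 rats had 5 mg/kg and 5 rats had 1 mg/kg, which is 10 of the 60 RNA-seq libraries of the study. All were male Sprague-Dawley rats, labelled as 7 to 8 weeks old, singly housed and given PFOA in water by oral gavage. Rats of the same day given 15 mg/kg or water alone (vehicle), and the 5 and 1 mg/kg rats of days 14 and 28, were each 5 per group and serve as side values. The day 14 rats are given as 8 to 9 weeks old and the day 28 rats as 10 to 11 weeks old. Day and age therefore change together and cannot be told apart. Each library is polyadenylated RNA from the frozen liver of 1 animal, so the rat is the replicate. The rats of a group are numbered 1 to 5 here for naming only.

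PFOA is a perfluorinated carboxylic acid whose chain resembles that of a fatty acid. In rodent liver it activates PPARα, a nuclear receptor for fatty acids that pairs with RXR and binds direct-repeat DNA elements near genes of fatty acid catabolism. Its classical targets in rat are the enzymes of peroxisomal beta-oxidation, the acyl-CoA thioesterases, the Cyp4a fatty acid hydroxylases, the carnitine shuttle, mitochondrial beta-oxidation and ketone body synthesis. PFOA is also known to activate the xenobiotic receptor CAR, which drives the Cyp2b genes.

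Of 12167 genes tested, 727 rose (5.98%) and 534 fell (4.39%) in 5 mg/kg livers relative to 1 mg/kg livers, at an adjusted p under 0.05 from edgeR's quasi-likelihood test. In all, 10.4% of the genes tested were called. The counts of the gene lists below are to be set beside these shares. The values printed are CPM, read counts scaled to a common library total with TMM factors, and each change is a log2 fold change, 5 over 1 mg/kg, with its standard error (SE). The median change over all genes tested was 0.01. In 320 genes (2.63%) the 5 mg/kg libraries and the 1 mg/kg libraries did not overlap in CPM, and 238 of the called genes (18.9%) were among them. In bulk liver, fewer cells of a type and less RNA per cell cannot be told apart.

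The libraries varied along 1 strong axis within every group, which held 58.9% of the variance inside groups and ran against the ribosomal protein genes (65 of 65 tested, median r = -0.98 with the axis). Each library's position on it, the library score, was a term of the test. The biological coefficient of variation was 0.20 with this term and 0.39 without it. The score was built from the same deviations inside groups, so a smaller spread with it follows from how it was made. The 5 mg/kg libraries scored -0.621 ± 1.19 and the 1 mg/kg libraries 0.0701 ± 1.18 (SD), a difference that an exact two-sided permutation test did not separate from 0 (p = 0.325, adjusted 0.341 over 2 such tests; the smallest p this design allows is 0.00794). At 5 mg/kg, rats 2 and 4 scored above 0 and rats 1, 3 and 5 below it. At 1 mg/kg, rats 1, 2 and 5 scored above 0 and rats 3 and 4 below it. Without the score as a term, 290 genes were called (2.38%), 182 higher and 108 lower, and 289 of them were also called with it. Leaving out rat 2 of the 5 mg/kg group lowered the number of called genes to 784 (549 higher and 235 lower). The total of counts per library was 8715022 to 19159502.

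Among the genes of peroxisomal fatty acid oxidation, 8 of 16 tested rose and none fell, with a median change of 0.31. Ehhadh, the bifunctional hydratase and dehydrogenase of the peroxisome, had 13448, 17071, 10748, 17098 and 7486 CPM at 5 mg/kg, against 2448, 2425, 2396, 1975 and 2302 CPM at 1 mg/kg. All 5 rats of the higher dose stood above all 5 of the lower, and the change was 2.61 ± 0.20 (SE; adjusted p = 3.2e-14). The thiolase Acaa1a had 1544, 1082, 595, 526 and 270 CPM at 5 mg/kg, against 165, 136, 151, 313.5 and 231 CPM at 1 mg/kg (change 1.94 ± 0.33, adjusted p = 5.6e-05), where rat 5 of the higher dose lay inside the 1 mg/kg range. The dienoyl-CoA isomerase Ech1 had a change of 1.19 ± 0.12 with no overlap, and the acyltransferases Crat and Crot, which pass shortened acyl chains to carnitine, had changes of 1.73 ± 0.20 and 1.32 ± 0.24. The 8 members not called included the branched-chain oxidase Acox2 and Scp2. Acaa1a and Crot were picked after their values were seen.

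Peroxins, the proteins that build peroxisomes, and the peroxisomal transporters gave 5 genes higher and none lower of 21 tested, with a median change of 0.28. Pex11a, which promotes peroxisome division, had 917, 607, 1028, 673 and 846 CPM at 5 mg/kg, against 247.1, 251.3, 360, 251.5 and 176 CPM at 1 mg/kg. The groups were apart, and the change was 1.47 ± 0.15 (adjusted p = 1.6e-10). Abcd3, an importer of acyl-CoAs, rose by 1.09 ± 0.15, Mlycd, which breaks down malonyl-CoA, by 0.91 ± 0.16, and Pex11g by 0.92 ± 0.25. The Pex11g call was lost without rat 1 or 2 of the 5 mg/kg group or rat 3 of the 1 mg/kg group (adjusted p = 0.06 to 0.12). Without rat 5 of the 5 mg/kg group the number of members called was 8, and without the library score it was 3, with Pex11g lost.

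Acyl-CoA thioesterases release free fatty acids from CoA. Of 11 tested, 8 rose and none fell, with a median change of 0.83. Acot1 had 914, 591, 619, 664 and 649 CPM at 5 mg/kg, against 18.8, 15.2, 23.4, 17.1 and 5.88 CPM at 1 mg/kg. No liver of the lower dose came near those of the higher, and the change was 5.30 ± 0.43 (adjusted p = 3e-13). Acot2 (1.46 ± 0.22), Acot3 (1.89 ± 0.21), Acot4 (0.77 ± 0.16), Acot7 (1.43 ± 0.20) and Acot8 (1.89 ± 0.27) rose as well. Acot1 to Acot4 are close relatives in sequence, and how reads that match several of them were counted is not given in the sources used here, so their single values are uncertain. Acot4 was named after its values were seen. Acot8, the peroxisomal member, had 120, 33.4, 39.5, 22.6 and 31.1 CPM at 5 mg/kg, against 7.02, 4.84, 9.15, 21.6 and 7.45 CPM at 1 mg/kg, with rat 1 of the higher dose far above the rest and no overlap.

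The window of 250 bases before the start of Acot8 is printed because it holds, within 22 bases of the start, a match to the direct repeat bound by PPARα with RXR (RefSeq, GRCr8, chr3:173962189-173962438, minus strand). Capitals mark the match to a motif of 2 copies of AGGTCA with 1 base of any kind between them, searched on both strands with at most 1 mismatch.
Acot8: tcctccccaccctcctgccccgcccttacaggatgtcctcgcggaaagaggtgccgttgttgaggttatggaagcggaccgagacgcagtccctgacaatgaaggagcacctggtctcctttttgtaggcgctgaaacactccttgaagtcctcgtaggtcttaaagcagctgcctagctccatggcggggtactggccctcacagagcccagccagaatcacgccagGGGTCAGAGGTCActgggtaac

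Such a match lay in 123 of 33469 promoter windows (0.368%). Among the PPARα-linked lists it lay in 5 of the 94 genes with a window (5.32%), which were Acot8, Acot4, Acot12, Acadvl and Fabp1. A match of letters is a description and not a binding site.

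The fatty acid omega-hydroxylases were mixed: of 11 tested, 1 rose, 1 fell and 9 did not pass, with a median change of -0.07. The 1 gene in each direction was 9.09% of the list, beside 5.98% higher and 4.39% lower of all genes tested. Cyp4a1 had 1703, 6369, 2932, 7148 and 1812 CPM at 5 mg/kg, against 1756, 3025, 888, 835 and 1646 CPM at 1 mg/kg. The groups overlapped, with rats 2 and 4 of the higher dose highest. The change was 1.62 ± 0.18 (adjusted p = 5.1e-09), and it was not called without the library score (adjusted p = 0.088). Cyp4a2 (-0.24 ± 0.51) and Cyp4a3 (0.53 ± 0.29) were not called, and Cyp4f1 fell by 0.48 on the log2 scale. Without the score the Cyp4f1 call was lost too (adjusted p = 0.18), so that no member was called in either direction. The count higher was 2 without rat 4 of the 5 mg/kg group, and the count lower was 2 without rat 2 or 5 of that group.

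**Figure D1:**
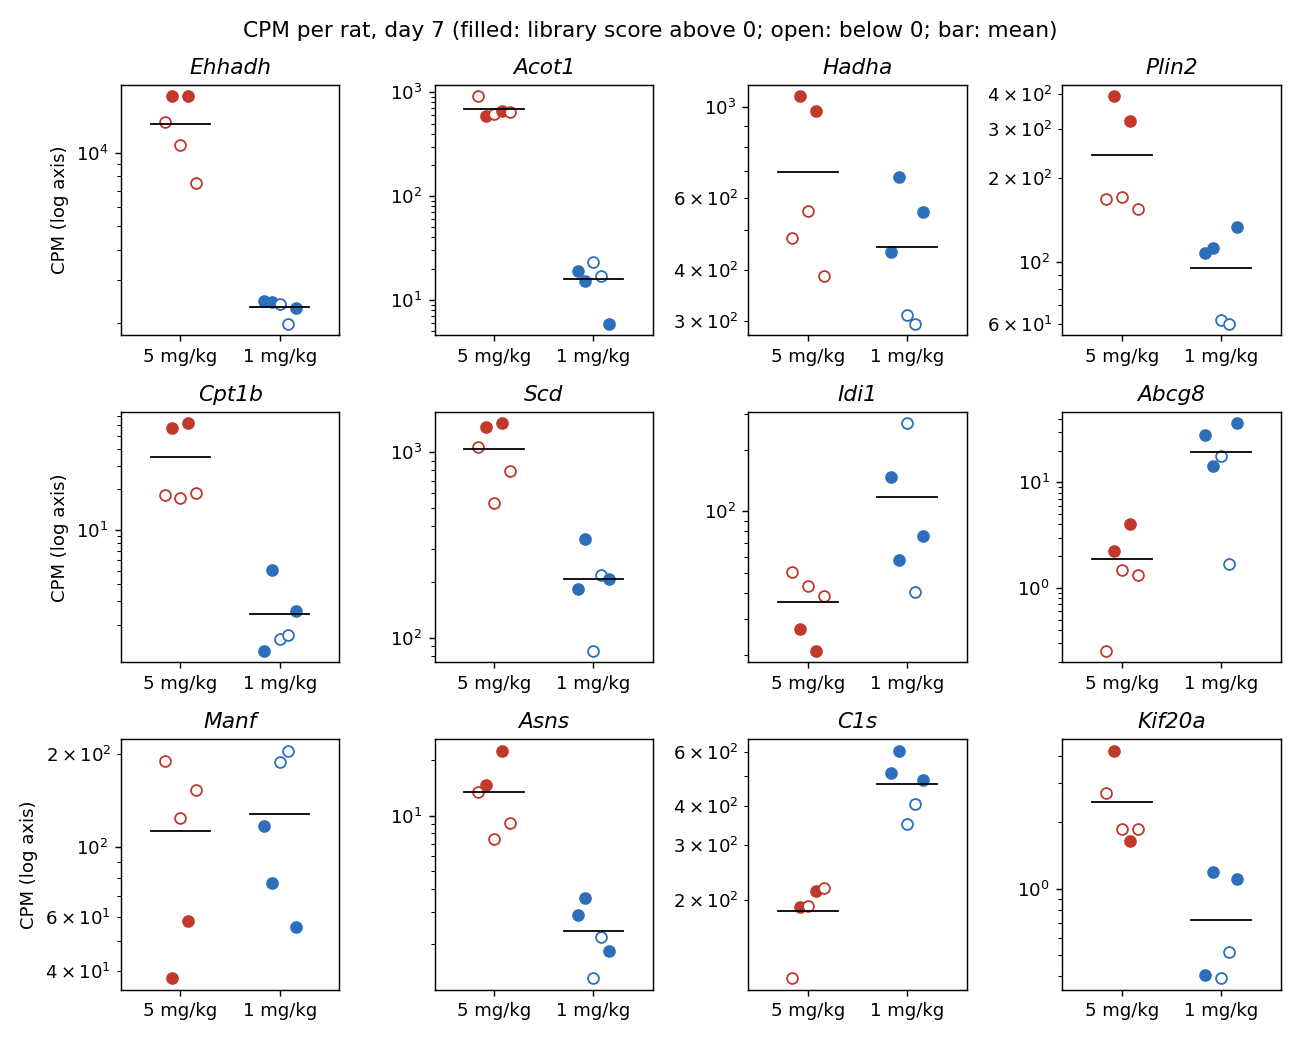
CPM on a log axis of 12 genes in each rat, with 5 mg/kg left of 1 mg/kg in each panel, filled points for libraries that scored above 0 on the library axis, open points for those below, and a bar at the mean. Acot1 and Ehhadh are apart between the doses in all rats, whereas Hadha and Manf overlap, and within each dose the filled points are higher than the open ones in Hadha and lower in Manf.

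Most enzymes of mitochondrial beta-oxidation rose. Of 20 tested enzymes, 14 rose and none fell, with a median change of 0.51. The trifunctional protein splits long-chain acyl-CoAs and is made of the products of Hadha and Hadhb. Hadha had 478, 1064, 557, 981 and 387 CPM at 5 mg/kg, against 443, 674, 310, 295 and 553 CPM at 1 mg/kg. These ranges overlapped, and Hadha followed the axis behind the library score (r = 0.95 with the axis within groups, over all 60 libraries). The change was 0.90 ± 0.10 with the score (adjusted p = 5.1e-09) and 0.61 without it (adjusted p = 0.34). Hadhb had 696, 1023, 744, 1118 and 710 CPM at 5 mg/kg, against 538, 695, 558, 381 and 450 CPM at 1 mg/kg, with no overlap and a change of 0.84 ± 0.13 (adjusted p = 6.8e-06).

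Hadha and Hadhb start 300 bases apart on opposite strands, and the middle 200 bases between them, within 250 bases of both starts, are printed because they lie upstream of both members of a pair that rose together (RefSeq, GRCr8, chr6:31907551-31907750, plus strand). The same search found no match to the direct repeat there.
Hadha and Hadhb: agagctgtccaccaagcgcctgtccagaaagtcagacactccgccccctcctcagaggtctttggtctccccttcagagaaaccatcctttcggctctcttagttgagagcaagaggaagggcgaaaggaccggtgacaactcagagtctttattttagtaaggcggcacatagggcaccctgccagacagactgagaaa

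Among the other enzymes of the mitochondrial spiral, the isomerase Eci1 rose (1.18 ± 0.16, adjusted p = 5.4e-07). The thiolase Acaa2 (0.77 ± 0.15) and the dehydrogenase Hadh (0.64 ± 0.11) rose with no overlap between doses. The acyl-CoA dehydrogenases Acadvl, for very long chains, and Acadm, for medium chains, rose by 0.45 ± 0.09 and 0.32 ± 0.10. Acsl1, which activates long-chain fatty acids, rose by 0.56 ± 0.11. The Acadm call was lost without rat 4 of either group. Without the score, 6 of the 20 were called, and the calls of Hadha, Acadvl, Acadm and Acsl1 were lost. Acaa2, Acadvl, Acadm and Acsl1 were named after their values were seen.

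The carnitine shuttle carries acyl groups into mitochondria, and 6 of its 10 tested genes rose while none fell (median 0.60). Cpt1b, the muscle form of the outer carnitine palmitoyltransferase, had 18.1, 56.6, 17.4, 61.4 and 18.8 CPM at 5 mg/kg, against 1.28, 5.07, 1.57, 1.67 and 2.53 CPM at 1 mg/kg. Every rat of the higher dose was above every rat of the lower, and the change was 4.11 ± 0.54 (adjusted p = 3.3e-07). Cpt1a, the liver form, was not called: it had 227, 541, 286, 596 and 233 CPM at 5 mg/kg and 530, 515, 345, 177 and 524 CPM at 1 mg/kg, with a change of 0.13 and a 95% interval of -0.19 to 0.44. The carnitine importer Slc22a5 rose by 1.08 ± 0.15 and the inner-membrane carrier Slc25a20 by 0.67 ± 0.09, both without overlap.

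Ketone body genes gave 5 of 10 tested higher and none lower (median 0.46). Acat1 had 1928, 1285, 1722, 1700 and 1298 CPM at 5 mg/kg, against 492, 447, 628, 792 and 330 CPM at 1 mg/kg. Acat1 was apart between the doses in every rat (1.44 ± 0.16, adjusted p = 2.7e-09). Slc16a6, a ketone body exporter, rose by 2.46 ± 0.40. Of the 10, 3 were called without the library score.

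Of 41 further PPARα targets tested, 23 rose and none fell, with a median change of 0.96. Pdk4, a kinase that shuts off pyruvate dehydrogenase, had 155, 365, 203, 401 and 174 CPM at 5 mg/kg, against 53.7, 84.2, 37.1, 17.1 and 128 CPM at 1 mg/kg (change 2.61 ± 0.34, adjusted p = 2.9e-07), with no overlap. Vnn1, a pantetheinase of CoA turnover, had 1006, 649, 1038, 938 and 947 CPM at 5 mg/kg, against 281.7, 293, 369, 277.7 and 250 CPM at 1 mg/kg (1.56 ± 0.20, adjusted p = 2e-07), again apart. The glycerol channels Aqp3 and Aqp7 changed by 3.77 ± 0.69 and 3.32 ± 0.63. Hdc, histidine decarboxylase, had 65.0, 132, 59.9, 90.5 and 35.9 CPM at 5 mg/kg, against 6.07, 0.819, 3.01, 23.4 and 0.827 CPM at 1 mg/kg (3.61 ± 0.65), where rat 4 of the lower dose came nearest to the higher dose without reaching it. Fgf21, the fasting hormone, had 2.08, 0.788, 3.05, 0.641 and 4.14 CPM at 5 mg/kg and 0.742, 0.223, 0.653, 0.515 and 0.276 CPM at 1 mg/kg, and its change of 1.64 ± 1.11 did not pass (adjusted p = 0.38). Ucp3, an uncoupling protein normally of muscle and picked after its values were seen, held 39 counts in the 5 mg/kg libraries together and 1 count in the 1 mg/kg libraries, a ratio of 41.5 with a 95% interval of 7.02 to 1680 that covers counting error only. Its call (adjusted p = 0.034) was lost without rat 2 or 4 of the 5 mg/kg group or any 1 of the 5 rats of the 1 mg/kg group (adjusted p = 0.054 to 0.1), with no filter on low counts (adjusted p = 0.068) and with limma-voom (adjusted p = 0.21). Of the 41 targets, 12 were called without the library score.

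Genes of the lipid droplet and of lipolysis gave 9 of 15 higher and none lower (median 0.96). Plin2, the main droplet coat protein of hepatocytes, had 169, 393, 171, 321.9 and 155 CPM at 5 mg/kg, against 108, 112, 61.9, 59.8 and 133 CPM at 1 mg/kg. It was apart between the doses (1.6 ± 0.21, adjusted p = 1.5e-07). Mgll, which cleaves monoglycerides, had 30.2, 163, 54.8, 111 and 28.8 CPM at 5 mg/kg, against 36.6, 33.7, 14.0, 17.4 and 43.0 CPM at 1 mg/kg. Those values overlapped in rats 1 and 5 of the higher dose, and the call (1.71 ± 0.17, adjusted p = 1.6e-10) was lost without the library score (adjusted p = 0.076). Plin5 rose by 1.22 ± 0.25 and Hilpda, an inhibitor of lipolysis, by 1.11 ± 0.20. Without the score 3 of the 15 were called, and the Hilpda call was lost as well.

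Triglyceride and phospholipid synthesis gave 8 of 22 higher and 1 lower (median 0.20). Gpat3, a glycerol-3-phosphate acyltransferase, had 9.28, 19.8, 13.9, 36.0 and 15.1 CPM at 5 mg/kg, against 2.29, 2.68, 1.57, 0.772 and 3.59 CPM at 1 mg/kg, with no overlap and a change of 3.32 ± 0.53 (adjusted p = 1.8e-05). Dgat1, which adds the last acyl chain, rose by 0.83 ± 0.12, choline kinase Chkb by 1.36 ± 0.20 and the glycerol-3-phosphate dehydrogenase Gpd1 by 1.01 ± 0.16. Lipoprotein lipase, Lpl, had 55.0, 111, 84.6, 316.5 and 42.2 CPM at 5 mg/kg, against 19.0, 17.6, 28.0, 19.6 and 18.9 CPM at 1 mg/kg (2.58 ± 0.45, adjusted p = 8.1e-05). Rat 4 of the higher dose was far above the other livers in Lpl. Without the library score the list gave 3 higher and none lower, and the Gpd1 call was lost. The count lower was also 0 without any 1 rat other than rat 5 of each group, and 2 without rat 5 of the 5 mg/kg group.

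De novo lipogenesis gave 8 of 20 higher and 1 lower (median 0.33). Scd, the stearoyl-CoA desaturase, had 1067, 1377, 532, 1430 and 796 CPM at 5 mg/kg, against 184, 342, 84.7, 217 and 208 CPM at 1 mg/kg, apart in all rats (2.58 ± 0.58, adjusted p = 0.0023). Srebf1, the master regulator of lipogenesis, rose by 1.30 ± 0.30, Me1, which makes NADPH, by 0.94 ± 0.26 and the elongase Elovl1 by 0.58 ± 0.12. Fasn, the fatty acid synthase, was not called (0.31, 95% interval -0.58 to 1.20), and Acss2, which activates acetate, fell by 1.07. The number higher was 5 when rat 1 or 2 of the 5 mg/kg group, or rat 1 or 3 of the 1 mg/kg group, was left out, and 3 without the library score. The Srebf1 call was lost without the score (adjusted p = 0.14) and in a fit of the compared groups alone (adjusted p = 0.096), where the Acss2 call was lost too.

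**Figure D2:**
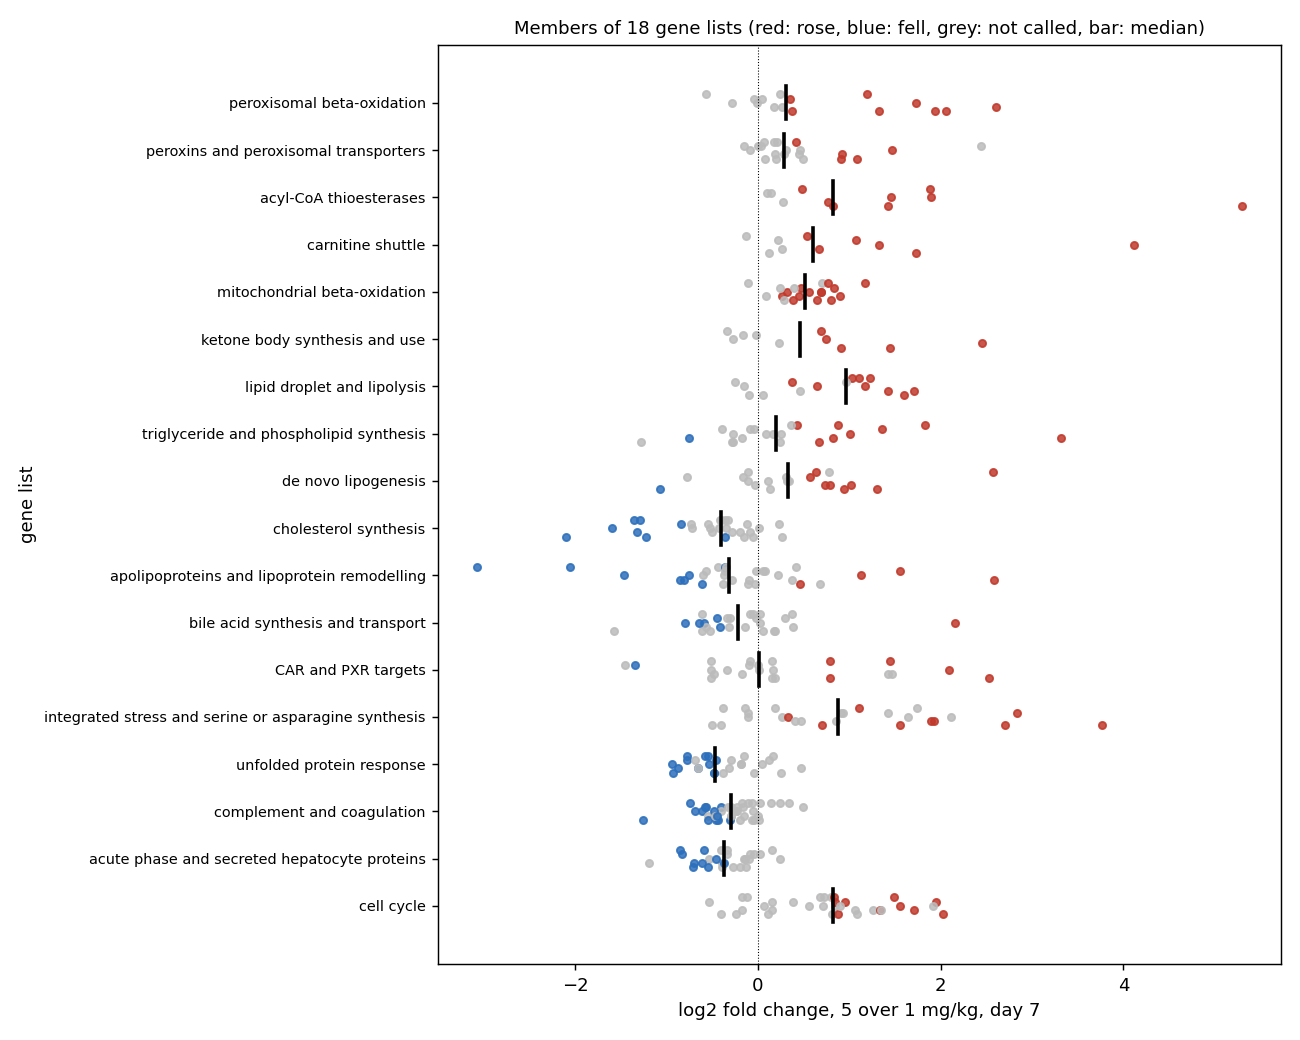
Log2 fold change (5 over 1 mg/kg, day 7) of every tested member of 18 gene lists, 1 row per list, with called genes in colour, others in grey and a black bar at the list median. The mitochondrial beta-oxidation row lies to the right of 0 for nearly all members, and the cholesterol synthesis and complement rows to the left.

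The dose that a gene needs can be read by setting the 1 mg/kg livers beside the vehicle livers of the same day. Against vehicle, 183 genes (1.5%) were called at 1 mg/kg, 108 higher (0.888%) and 75 lower (0.616%), and 2256 (18.5%) at 5 mg/kg, 1186 higher (9.75%) and 1070 lower (8.79%). The count at 1 mg/kg was 104, 82 and 80 without rat 1, 2 or 3 of the 1 mg/kg group. It was 14 without the library score, 11 higher and 3 lower. Which of the genes named here kept their call at 1 mg/kg over vehicle in that fit without the score is not given here. These comparisons share rats with the comparison of the doses, so their values are given side by side and are not independent. A first tier was called higher at 1 mg/kg over vehicle and again at 5 over 1 mg/kg, with the score as a term. Ehhadh averaged 816 ± 253.8 CPM with vehicle, 2309 ± 195 at 1 mg/kg, 13170 ± 4150 at 5 mg/kg and 18866 ± 2776 at 15 mg/kg (SD, n = 5 each). Acot1 averaged 1.29 ± 1.37, 16.1 ± 6.46, 687 ± 130 and 759 ± 114 CPM in the same order. The changes of 1 mg/kg over vehicle were 3.65 ± 0.48 for Acot1, 2.01 ± 0.19 for Cyp4a1, 1.5 ± 0.19 for Ehhadh, 1.47 ± 0.34 for Cyp2b1, 1.38 ± 0.20 for Vnn1, 1.10 ± 0.22 for Acot2, 1.01 ± 0.15 for Pex11a and 0.81 ± 0.12 for Ech1, all called. Cyp4a1 is the gene of this set whose step from vehicle to 1 mg/kg had the larger point estimate (2.01 against 1.62 between 1 and 5 mg/kg). Cpt1a was called in 1 mg/kg over vehicle (0.57 ± 0.16, adjusted p = 0.044) and not between the doses.

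A second tier was called between the doses and not between 1 mg/kg and vehicle. Plin2 averaged 118 ± 35.6 CPM with vehicle, 94.97 ± 32.5 at 1 mg/kg, 242 ± 109 at 5 mg/kg and 389 ± 98.9 at 15 mg/kg, and its 1 mg/kg over vehicle interval was -0.78 to 0.02. Angptl4, a secreted inhibitor of lipoprotein lipase, averaged 113 ± 36.8, 113 ± 13.2, 240 ± 30.3 and 272.4 ± 17.6 CPM over the same doses. The interval of its lower-dose change was -0.41 to 0.42, against a change of 1.13 ± 0.21 between the doses. Acot7 averaged 22.3 ± 3.27, 23.9 ± 2.66, 61.7 ± 23.4 and 88.4 ± 11.3 CPM, Dgat1 37.9 ± 9.16, 36.8 ± 8.25, 72.0 ± 19.0 and 82.2 ± 11.3 CPM. The 1 mg/kg over vehicle intervals were -0.32 to 0.48 for Acot7 and -0.26 to 0.24 for Dgat1. Intervals that span 0 do not show that 1 mg/kg left these genes unmoved, but they bound the size of a change. Among the steepest genes, Gpat3, Aqp7, Lpl and Dnajc5b had point estimates below 0 at 1 mg/kg over vehicle (-1.07, -0.71, -0.37 and -0.22) and changes of 2.58 or more between the doses.

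**Figure D3:**
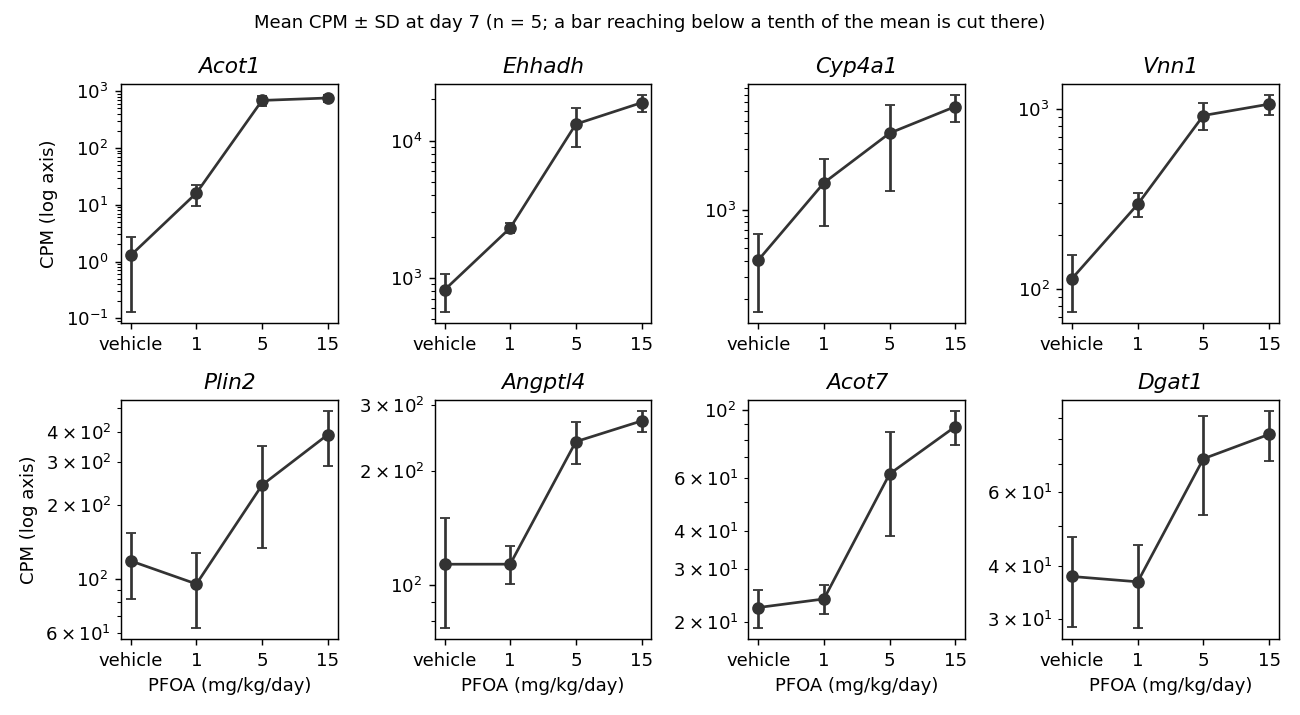
Mean CPM ± SD on a log axis at day 7 for vehicle, 1, 5 and 15 mg/kg (n = 5 each), for 4 genes called in 1 mg/kg over vehicle (upper row) and 4 that were not (lower row). The lower bar of Acot1 with vehicle is cut short because it would pass 0. In the upper row each mean climbs at 1 mg/kg, and in the lower row the vehicle and 1 mg/kg means lie close together below the 5 mg/kg mean.

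By size, 12 genes with the steepest rise and no overlap between the doses were singled out. Beside Acot1, Cpt1b, Gpat3, Hdc, Aqp3 and Aqp7 these were Otop1, Dnajc5b, Chrna2, Krt23, Cacna2d3 and LOC108348093. Dnajc5b, a DnaJ-type cochaperone gene, had 59.6, 18.9, 32.0, 24.2 and 44.6 CPM at 5 mg/kg, against 0.202, 0.670, 0.523, 1.93 and 0.276 CPM at 1 mg/kg (5.20 ± 0.57, adjusted p = 4.8e-09). Krt23, a keratin, had 22.0, 26.4, 33.3, 21.9 and 25.4 CPM at 5 mg/kg, against 2.02, 2.98, 1.57, 3.73 and 1.42 CPM at 1 mg/kg (3.28 ± 0.35, adjusted p = 1.7e-09). In both genes every 5 mg/kg liver was above every 1 mg/kg liver. Chrna2, a nicotinic receptor subunit, changed by 4.04 ± 0.56, Cacna2d3, a calcium channel subunit, by 3.12 ± 0.34, and LOC108348093 by 3.04 ± 0.70. Otop1, a proton channel gene, had 189 counts over the 5 mg/kg libraries and 0 over the 1 mg/kg libraries, so it was at least 67-fold higher, taking 3 counts over the group as the floor. It was in all 5 livers of the higher dose, between 0.134 and 8.41 CPM.

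In cholesterol synthesis, 8 of 28 genes tested fell and none rose, with a median change of -0.41. Idi1, isopentenyl diphosphate isomerase, had 50.6, 26.7, 43.3, 20.8 and 38.6 CPM at 5 mg/kg, against 147, 57.7, 268.4, 40.3 and 75.7 CPM at 1 mg/kg. The groups overlapped at rat 4 of the lower dose, and the change was -2.10 ± 0.38 (adjusted p = 0.00017). Insig1, a regulator of SREBP processing, had 118, 76.8, 104, 62.7 and 140 CPM at 5 mg/kg, against 243, 265.6, 250.7, 297 and 77.7 CPM at 1 mg/kg (-1.35 ± 0.33, adjusted p = 0.0054). Rat 5 of the 1 mg/kg group was its exception. Acat2 (-1.60 ± 0.33), Cyp51 (-1.22 ± 0.28), Msmo1 (-1.29 ± 0.33) and Sqle (-1.32 ± 0.38) fell too. The Sqle call was lost without rat 4 of the 5 mg/kg group or rat 1 or 3 of the 1 mg/kg group. The number lower was 5 without rat 4 of the 5 mg/kg group or rat 1 or 3 of the 1 mg/kg group, and 4 without the library score, where the calls of Insig1 (adjusted p = 0.062) and Cyp51 were lost. None of the 28 was called between 1 mg/kg and vehicle, and 12 were lower at 5 mg/kg over vehicle. Msmo1 and Sqle were named after their values were seen.

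Among apolipoproteins and genes of lipoprotein remodelling, 4 of 30 rose and 8 fell (median -0.32). Abcg5 and Abcg8, whose products form the sterol exporter of the canalicular membrane, both fell. Abcg8 had 0.252, 2.22, 1.47, 4.06 and 1.34 CPM at 5 mg/kg, against 27.9, 14.4, 17.8, 1.67 and 36.1 CPM at 1 mg/kg. Rat 4 of the lower dose was as low as the higher dose, and the other 4 were apart (-3.08 ± 0.58, adjusted p = 0.00024). Abcg5 had 16.0, 13.5, 27.2, 18.7 and 36.2 CPM at 5 mg/kg, against 65.2, 30.5, 97.0, 33.2 and 43.8 CPM at 1 mg/kg (-1.46 ± 0.43, adjusted p = 0.021). The Abcg5 call was lost without rat 1 or 2 of the 5 mg/kg group or rat 3 of the 1 mg/kg group (adjusted p = 0.064 to 0.091). Apoa4 had 50.7, 108, 86.8, 44.9 and 99.3 CPM at 5 mg/kg, against 373, 389, 271.2, 349 and 321.9 CPM at 1 mg/kg, with no overlap (-2.05 ± 0.49, adjusted p = 0.0042). Apoa5 (-0.81 ± 0.19), chosen after its values were seen, and Lcat (-0.75 ± 0.12), which esterifies cholesterol on lipoproteins, fell without overlap. Vldlr, named after its values were seen, rose by 1.56 ± 0.40. The number lower was 5 without rat 1 or 2 of the 5 mg/kg group or rat 3 of the 1 mg/kg group, and 4 without the library score, where the Abcg5 call was lost too.

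Abcg5 and Abcg8 start 205 bases apart on opposite strands, and the region between them, upstream of both, is printed because both genes fell (RefSeq, GRCr8, chr6:15717731-15717935, plus strand).
Abcg5 and Abcg8: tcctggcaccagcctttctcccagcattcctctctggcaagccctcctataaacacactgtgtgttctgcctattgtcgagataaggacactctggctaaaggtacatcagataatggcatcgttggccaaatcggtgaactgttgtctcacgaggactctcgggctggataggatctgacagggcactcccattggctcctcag

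Bile acid genes gave 1 of 26 higher and 5 lower (median -0.22). Cyp7a1, the rate-limiting enzyme of bile acid synthesis, had 37.8, 17.5, 59.4, 2.49 and 96.9 CPM at 5 mg/kg and 73.3, 143, 153, 44.6 and 189 CPM at 1 mg/kg. The ranges overlapped and the change of -1.57 ± 0.79 did not pass (adjusted p = 0.21). Cyp8b1 averaged 206 ± 56.2 CPM at 5 mg/kg and 246.8 ± 141 CPM at 1 mg/kg (SD, n = 5 each) and was not called. The uptake carrier Slco1b2 fell by 0.64 and Akr1c14 by 0.59, and the exporter Abcc3 rose by 2.16 ± 0.46. None of the 6 was called without the library score. Only 2 or 3 members were lower when any 1 of rats 1, 2, 3 or 4 of the 5 mg/kg group or rat 2 of the 1 mg/kg group was left out.

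Genes of the integrated stress response and of serine and asparagine synthesis gave 9 of 26 higher and none lower (median 0.88). Asns, asparagine synthetase, had 13.5, 14.6, 7.47, 22.5 and 9.08 CPM at 5 mg/kg, against 2.90, 3.58, 1.31, 2.19 and 1.84 CPM at 1 mg/kg. It was apart in every rat (2.71 ± 0.39, adjusted p = 1.9e-06). Psat1, of serine synthesis, had 23.7, 7.73, 10.8, 10.8 and 14.7 CPM at 5 mg/kg, against 2.5, 4.69, 4.18, 3.47 and 2.25 CPM at 1 mg/kg, also apart (1.89 ± 0.32, adjusted p = 4.4e-05). Mthfd2, of mitochondrial folate metabolism, rose by 1.93 ± 0.41, Slc3a2, a subunit of amino acid exchangers, by 1.10 ± 0.26 and Phgdh by 2.84 ± 0.85. At 15 mg/kg Asns averaged 44.5 ± 16.0 CPM and Phgdh 11.4 ± 6.07 CPM, above the 13.4 ± 5.88 and 1.47 ± 1.03 CPM at 5 mg/kg. Atf3, a stress transcription factor, reached 157 CPM in rat 5 of the 5 mg/kg group and 0.596 to 4.67 CPM in the other 9 livers, so its call (3.76 ± 1.06, adjusted p = 0.016) leaned on 1 liver. Without rat 5 of that group the adjusted p was 0.76. The Phgdh call was lost without rat 1 of the 5 mg/kg group or rat 3 of the 1 mg/kg group, without the library score (adjusted p = 0.11) and with limma-voom (adjusted p = 0.22). Without the score 5 of the 26 were called higher, and the Slc3a2 call was lost as well. Phgdh and Atf3 were named after their values were seen.

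Genes of the unfolded protein response, the chaperone programme of the endoplasmic reticulum, gave none higher and 12 lower of 26 tested (median -0.47). Calr, the lectin chaperone calreticulin, had 296, 455, 324.2, 450 and 346 CPM at 5 mg/kg, against 687, 674, 586, 443 and 514 CPM at 1 mg/kg. The groups met only between rats 2 and 4 of the higher dose and rat 4 of the lower (-0.55 ± 0.14, adjusted p = 0.0066). Eif2ak3, the kinase PERK, had 6.12, 8.31, 8.26, 8.69 and 12.02 CPM at 5 mg/kg, against 14.2, 21.8, 14.5, 11.97 and 14.3 CPM at 1 mg/kg (-0.77 ± 0.18, adjusted p = 0.0036). Hspa5, the chaperone BiP, changed by -0.48 ± 0.15, Hsp90b1 by -0.54 ± 0.15, Hyou1 by -0.58 ± 0.14, Pdia4 by -0.48 ± 0.12 and Creld2 by -0.65 ± 0.19. Manf had 189, 38.0, 125, 57.9 and 153 CPM at 5 mg/kg, against 117, 77.0, 188, 204 and 55.4 CPM at 1 mg/kg. Those values overlapped widely, and Manf ran against the axis behind the library score (r = -0.95 with the axis within groups, over all 60 libraries). Its call (-0.78 ± 0.14, adjusted p = 0.00013) rested on the score term and was not made without it (adjusted p = 0.84). The calls of Sdf2l1, Dnajb9, Hspa5, Hsp90b1, Hyou1 and Creld2 were also lost without the score. Hspa5 lost its call in 12 of the 20 other settings. Of the 12 genes, 4 were called without the score, and 6 were called without rat 2 of the 5 mg/kg group. Over all rats left out 1 at a time the list gave 6 to 15 lower. Rat 2 of the 5 mg/kg group was needed for the calls of Hspa5, Hsp90b1, Hyou1, Pdia4 and Creld2. Rat 2 of the 1 mg/kg group was also needed for Hspa5, Hsp90b1 and Creld2, rat 3 for Hspa5 and Hsp90b1, and rat 1 of that group and rats 1 and 3 of the 5 mg/kg group for Hspa5. Calr, Hspa5, Hsp90b1, Hyou1, Pdia4 and Creld2 were named after their values were seen.

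The promoter windows of 4 of the lower genes are printed because each holds the endoplasmic reticulum stress element, CCAAT and CCACG with 9 bases of any kind between them and no mismatch, which ATF6 binds together with NF-Y (RefSeq, GRCr8, the 250 bases before each start). Capitals mark the element on either strand. The windows are chr19:40213117-40213366 for Calr (plus strand), chr7:23012294-23012543 for Hsp90b1 (minus strand), chr3:38452766-38453015 for Hspa5 (plus strand) and chr7:121789134-121789383 for Creld2 (plus strand).
Calr: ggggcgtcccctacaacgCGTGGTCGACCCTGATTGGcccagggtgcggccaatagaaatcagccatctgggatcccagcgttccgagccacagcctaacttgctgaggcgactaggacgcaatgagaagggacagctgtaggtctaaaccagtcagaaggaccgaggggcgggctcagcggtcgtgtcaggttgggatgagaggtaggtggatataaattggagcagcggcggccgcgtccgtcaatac
Hsp90b1: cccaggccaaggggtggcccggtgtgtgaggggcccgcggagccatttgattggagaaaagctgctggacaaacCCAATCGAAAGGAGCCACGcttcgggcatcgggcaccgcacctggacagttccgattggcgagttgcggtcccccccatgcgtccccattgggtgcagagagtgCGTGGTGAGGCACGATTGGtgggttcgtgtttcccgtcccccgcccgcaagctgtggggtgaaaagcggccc
Hspa5: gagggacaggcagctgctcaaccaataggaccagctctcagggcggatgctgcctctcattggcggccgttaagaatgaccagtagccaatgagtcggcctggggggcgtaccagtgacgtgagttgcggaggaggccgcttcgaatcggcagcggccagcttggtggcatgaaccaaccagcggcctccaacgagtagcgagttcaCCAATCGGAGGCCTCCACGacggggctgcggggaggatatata
Creld2: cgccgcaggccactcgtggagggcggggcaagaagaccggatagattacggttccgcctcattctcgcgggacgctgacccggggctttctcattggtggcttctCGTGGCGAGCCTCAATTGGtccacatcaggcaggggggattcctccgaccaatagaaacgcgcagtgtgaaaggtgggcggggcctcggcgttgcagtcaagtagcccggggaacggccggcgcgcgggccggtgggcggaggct

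The element lay in 22 of 33469 promoter windows (0.0657%) and in 8 of the 20 listed genes of the response that have a window (40%). The other 4 were Canx, Dnajc3, Xbp1 and Derl3, and Dnajc3 (-0.38 ± 0.13, adjusted p = 0.057) and Xbp1 (-0.69 ± 0.32, adjusted p = 0.17) were not called; both were named after their values were seen. Hsp90b1 holds it in 2 places.

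Targets of the xenobiotic receptors CAR and PXR gave 5 of 23 higher and 1 lower (median 0.02). Cyp2b1, the classical CAR target, had 948, 4115, 1781, 2948 and 899 CPM at 5 mg/kg, against 572, 553, 444, 164 and 414 CPM at 1 mg/kg. It was apart in all rats (2.53 ± 0.35, adjusted p = 1.2e-06). The close copy of Cyp2b1, Cyp2b2, with which it can share reads, rose by 2.09 ± 0.30 and overlapped between the doses. Aldh1a1, retinaldehyde dehydrogenase, had 1414, 1278, 1161, 1724 and 1035 CPM at 5 mg/kg, against 603, 537, 571, 351 and 592 CPM at 1 mg/kg (1.44 ± 0.26, adjusted p = 0.00016), and Cyp2c6v1 rose by 0.79 ± 0.23. The Cyp2c6v1 call was lost without rat 4 of the 1 mg/kg group (adjusted p = 0.053), and 3 members rose without it. Without the library score 3 members of the list rose and none fell, with Cyp2c6v1 lost, and the 1 lower call was lost without any 1 of rats 1, 2 or 4 of the 5 mg/kg group or rats 1, 2 or 3 of the 1 mg/kg group. Phase II conjugating enzymes gave 1 of 32 higher (3.12%) and 2 lower (6.25%). Antioxidant genes of NRF2 gave 3 of 31 higher (9.68%) and 1 lower (3.23%). Of all genes tested, 5.98% rose and 4.39% fell. The medians of the conjugating and antioxidant lists were 0.06 and 0.12. Without the library score the conjugating enzymes gave no call and the antioxidant genes 1 higher and none lower. The conjugating enzymes gave 0 to 2 higher and 1 or 2 lower when 1 rat was left out. Ephx1, microsomal epoxide hydrolase, rose by 0.92 ± 0.23 and Gstp1 fell by 0.59, both called only with the score. Of 15 aldehyde dehydrogenases 3 rose and none fell (median 0.11), Aldh1a1 among them, and 1 rose without the library score, without rat 1 of the 5 mg/kg group or without rat 4 of the 1 mg/kg group.

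Hepatocytes secrete most plasma proteins. In complement and coagulation, 13 of 41 genes were called lower and 0 higher (median -0.29), and 9 of 27 acute phase and other secreted proteins were called lower and 0 higher (median -0.37). C1s, a protease of the classical complement pathway, had 112, 189, 191, 213 and 218 CPM at 5 mg/kg, against 513, 605, 350, 406 and 485 CPM at 1 mg/kg. It was apart in every rat (-1.25 ± 0.27, adjusted p = 0.0015). Serpina1, alpha-1 antitrypsin, had 5415, 8073, 6432, 5818 and 6813 CPM at 5 mg/kg, against 10866, 13288, 10530, 10815 and 10452 CPM at 1 mg/kg, likewise apart (-0.69 ± 0.13, adjusted p = 0.00019). Saa4 (-0.83 ± 0.14) and Gc, the vitamin D binding protein (-0.59 ± 0.13), had no overlap, and Klkb1, plasma prekallikrein, fell by 0.74. The Klkb1 call was lost without rat 2 of the 5 mg/kg group (adjusted p = 0.058). In these lists, 4 complement and 3 acute phase genes were called lower without the library score. The complement count was 8, 3 and 7 without rat 1, 2 or 4 of the 5 mg/kg group and 5 without rat 2 of the 1 mg/kg group. Over all rats left out 1 at a time the complement count ranged from 3 to 15. Of the 12 hepatocyte markers, 6 fell and none rose (median -0.43), and the marker count was 2 without rat 2 of either group and 3 without rat 4 of the 1 mg/kg group, and 1 without the library score. Their summed level was 98548 to 183457 CPM at 5 mg/kg and 153139 to 199966 CPM at 1 mg/kg. Whether the proportion of hepatocytes or their RNA content moved was not tested.

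Urea cycle and amino acid catabolism gave 1 of 46 higher and 8 lower (median -0.08), where 2 to 5 were lower without any 1 of the 5 mg/kg rats or of rats 2 to 5 of the 1 mg/kg group, and 1 without the library score. The count higher was 0 to 3 when 1 rat was left out. Acmsd, an enzyme of tryptophan breakdown, had 3.47, 3.01, 3.34, 1.57 and 6.01 CPM at 5 mg/kg, against 13.02, 10.1, 21.6, 23.3 and 5.93 CPM at 1 mg/kg, meeting only at rat 5 of each dose (-2.24 ± 0.39, adjusted p = 8.1e-05). Glucose genes gave 2 of 31 higher and 6 lower (median -0.11), and 1 higher and 3 lower without the score, where the Ugp2 call was lost. The count higher was also 1 without rat 2 of either group. Pck1, the gluconeogenic carboxykinase, had 306.2, 936, 527, 718 and 364 CPM at 5 mg/kg, against 1711, 2969, 1234, 1182 and 2143 CPM at 1 mg/kg, with no overlap (-1.34 ± 0.30, adjusted p = 0.0026). The glucose transporter Slc2a2 fell by 0.81, Ugp2, of glycogen synthesis, by 1.05, and Ppp1r3c, a glycogen-targeting phosphatase subunit named after its values were seen, by 1.37 (not called without rat 4 of the 5 mg/kg group, adjusted p = 0.056). Of the pericentral zonation genes 1 of 18 rose and 3 fell (median -0.40), and 1 fell without the score. Among them Cyp1a2 had 52.6, 236, 140, 133 and 105 CPM at 5 mg/kg, against 482, 626, 347, 184 and 656 CPM at 1 mg/kg (-1.39 ± 0.27, adjusted p = 0.00042), with an overlap at rat 2 of the higher dose and rat 4 of the lower.

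The largest falls outside those lists were in Gimd1, Stac3, Aacs, Acta2, Arntl2, Plppr1, Pdgfc, Pkdcc, Sdc4 and Tsku, which with Apoa4 and Dio1 made up the 12 genes with the steepest fall and no overlap. Stac3 had 1.64, 1.07, 4.33, 4.70 and 1.47 CPM at 5 mg/kg, against 20.4, 29.9, 22.9, 14.7 and 20.4 CPM at 1 mg/kg (-3.18 ± 0.58, adjusted p = 0.00017). Aacs, which activates acetoacetate for lipid synthesis, had 0.315, 0.573, 0.393, 0.285 and 0 CPM at 5 mg/kg, against 3.10, 1.64, 1.57, 0.643 and 2.85 CPM at 1 mg/kg (-2.50 ± 0.47, adjusted p = 0.00019). Dio1, the deiodinase that activates thyroid hormone, had 41.8, 43.5, 38.5, 38.8 and 62.1 CPM at 5 mg/kg, against 132, 110, 192, 92.4 and 99.9 CPM at 1 mg/kg (-1.54 ± 0.28, adjusted p = 0.00012). These 3 genes were clear of overlap in every rat. Gimd1 changed by -3.23 ± 0.54, the growth factor Pdgfc by -1.40 ± 0.29, the kinase Pkdcc by -1.49 ± 0.31 and the syndecan Sdc4 by -1.41 ± 0.31. The calls of Plppr1 (lost without rat 1 or 4 of the 5 mg/kg group or rat 4 of the 1 mg/kg group), Acta2 (rat 2 of the 5 mg/kg group or rat 5 of the 1 mg/kg group) and Tsku (8 of the 10 rats, all but rat 5 of each group) depended on single rats. The calls of Gimd1 (change -2.13, adjusted p = 0.18), Plppr1 and Arntl2 were lost without the library score. Among the lists that hold Dio1 and Stac3, thyroid carriers and targets gave 1 of 12 higher and 1 lower (median -0.05) and growth hormone and sex-biased genes none of 24 higher and 5 lower (median -0.45). The thyroid calls were 8.33% of that list in each direction, beside 5.98% higher and 4.39% lower of all genes tested. The growth hormone count was 2 or 3 without rat 2, 4 or 5 of the 5 mg/kg group or rat 1, 2 or 4 of the 1 mg/kg group, and 1 without the library score. The thyroid count lower was 2 without rat 4 of the 5 mg/kg group. Cyp2c11, the male-specific cytochrome, changed by -0.40 ± 0.19 (adjusted p = 0.19).

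Cell division genes were higher in some livers of the higher dose. Of 34 tested, 10 rose and none fell (median 0.82), and except for Tyms those named here act in mitosis. Kif20a, a mitotic kinesin, had 2.71, 4.23, 1.87, 1.64 and 1.87 CPM at 5 mg/kg, against 0.405, 1.19, 0.392, 0.515 and 1.10 CPM at 1 mg/kg, with no overlap (2.03 ± 0.49, adjusted p = 0.0043). Ccnb1, the cyclin of mitotic entry, had 21.3, 5.23, 10.4, 1.99 and 6.94 CPM at 5 mg/kg, against 0.877, 1.19, 1.70, 3.47 and 1.01 CPM at 1 mg/kg (1.95 ± 0.56, adjusted p = 0.018). Rat 1 of the higher dose was highest and rat 4 fell within the lower dose. Cdk1 had 9.28, 4.80, 6.00, 2.49 and 5.74 CPM at 5 mg/kg, against 1.35, 1.71, 1.96, 1.93 and 0.919 CPM at 1 mg/kg (1.49 ± 0.44, adjusted p = 0.022), and Tyms, of thymidylate synthesis, rose by 0.83 ± 0.17. At 15 mg/kg Ccnb1 averaged 1.26 ± 1.06 CPM, Cdk1 1.43 ± 0.819 CPM and Kif20a 1.04 ± 0.594 CPM, within the range of the 1 mg/kg livers. The proliferation marker Mki67 changed by 1.09 ± 0.40 and was not called (adjusted p = 0.067). The count of members higher was 4, 4, 6, 3 and 6 without rat 1 or 2 of the 5 mg/kg group and rat 1, 3 or 4 of the 1 mg/kg group. Over all rats left out 1 at a time the count ranged from 3 to 15. Without the library score it was 3, and the calls of Kif20a (adjusted p = 0.079) and Cdk1 were lost. The Ccnb1 call was lost without rat 1 or 2 of the 5 mg/kg group or rat 3 of the 1 mg/kg group, and the Cdk1 call without rat 2 of the 5 mg/kg group or rat 3 or 4 of the 1 mg/kg group. Genes of p53 and growth arrest gave 2 of 19 higher (10.5%) and 1 lower (5.26%), with a median of 0.07. Of all genes tested, 5.98% rose and 4.39% fell. The p53 list gave 1 higher and none lower without the score. With 1 rat left out it gave 1 to 3 higher and 0 or 1 lower. Cdk1 and Mki67 were picked after their values were seen.

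Several lists held few or no calls. None of 33 proteasome subunits (median 0.12), 12 mitochondrially encoded genes (median -0.16), 32 interferon-stimulated genes (median -0.24), 9 lymphocyte and neutrophil markers (median -0.83) or 5 erythroid markers (median -0.04) was called. Leaving out 1 rat gave 3 higher proteasome subunits without rat 5 of either group, 3 lower interferon-stimulated genes without rat 3 of the 5 mg/kg group and 1 higher without rat 5 of the 1 mg/kg group, and 2 and 1 lower lymphocyte and neutrophil markers without rats 3 and 4 of the 5 mg/kg group. Mitochondrially encoded genes took 4.49 ± 1.5% of the counts at 5 mg/kg and 5.47 ± 1.78% at 1 mg/kg (SD; exact two-sided permutation p = 0.341, adjusted 0.341). Among 65 ribosomal protein genes 1 rose (median -0.01). The library score runs against these genes, so the test with it cannot decide whether they changed. Their median was 0.72 without the score. Among 17 clock genes 2 rose (median 0.14), and among 35 nuclear receptors and liver transcription factors 2 rose and 1 fell (median 0.16). Of all genes tested, 5.98% rose and 4.39% fell. Without the library score none of the ribosomal and clock genes was called, and 1 of the transcription factors rose and none fell. When 1 rat was left out the ribosomal count was 0 or 1, the clock count 0 to 3, and the factor counts 1 to 3 higher and 0 or 1 lower. Hnf4g, a relative of the hepatocyte factor Hnf4a, rose by 0.89 ± 0.21. Ppara itself had 4.86, 28.3, 13.9, 34.4 and 8.55 CPM at 5 mg/kg and 26.2, 32.9, 8.89, 6.05 and 34.0 CPM at 1 mg/kg, following the library score, with a change of 0.25 and an interval of -0.26 to 0.75. Mt-nd1 changed by -0.03 ± 0.34.

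Markers of the other liver cells were counted list by list. Of 11 endothelial markers 3 fell (median -0.30), of 15 stellate cell and fibroblast markers 3 fell (median -0.23), of 12 Kupffer cell markers 1 fell (median -0.73), and none of these rose. Those falls were 27.3%, 20% and 8.33% of the lists, beside 4.39% of all genes tested. The Kupffer cell count was 8 without rat 3 of the 5 mg/kg group and 0 without rat 2 of that group or without the library score. Without the score 1 endothelial and 2 stellate cell markers fell. Lyve1, a sinusoidal endothelial receptor, had 48.0, 48.6, 69.5, 60.2 and 57.1 CPM at 5 mg/kg, against 82.8, 86.6, 93.0, 73.7 and 74.6 CPM at 1 mg/kg, with no overlap (-0.51 ± 0.13, adjusted p = 0.0056). The vehicle livers had 56.1 ± 7.81 CPM of it, and it was higher at 1 mg/kg than with vehicle (0.54 ± 0.12, adjusted p = 0.012). Fcgr2b had the same shape, with changes of -0.60 ± 0.14 between the doses and 0.61 ± 0.14 at 1 mg/kg over vehicle, but its call between the doses was lost without the score. The summed endothelial markers were 308.2 to 411 CPM at 5 mg/kg and 440 to 491 CPM at 1 mg/kg, and the summed Kupffer cell markers 322.5 to 883 CPM at 5 mg/kg and 565 to 1020 CPM at 1 mg/kg. Hgf, a growth factor of stellate cells, fell by 0.96. Of 7 cholangiocyte markers 1 rose, Epcam (1.05 ± 0.19, adjusted p = 0.00016), and 1 fell (median 0.10), the fall not being called without the score, without rat 2 or 4 of the 5 mg/kg group or without rat 5 of the 1 mg/kg group. No marker of these lists was at 0 in all libraries of a group. Summed erythroid markers ranged from 73.7 to 4082 CPM at 5 mg/kg and from 112 to 1560 CPM at 1 mg/kg. The part of these cells in the results above was not tested.

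**Figure D4:**
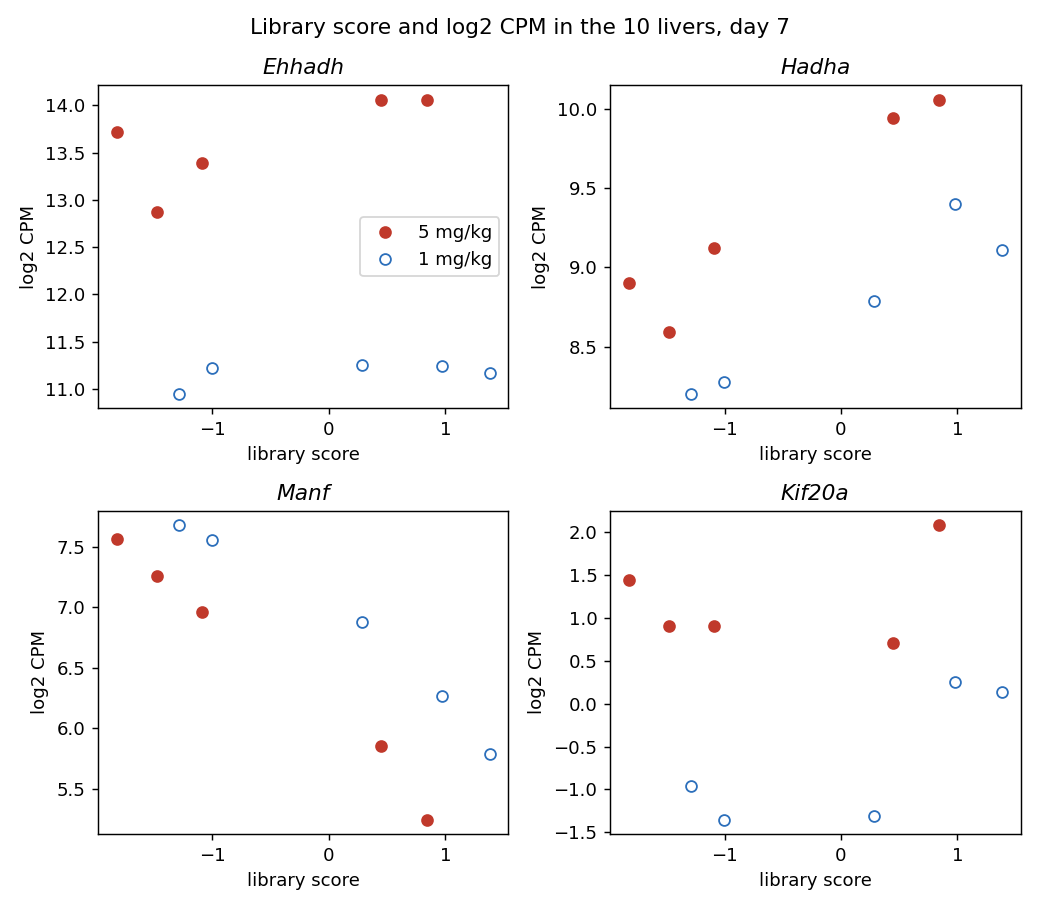
Log2 CPM against the library score in the 10 livers for Ehhadh, Hadha, Manf and Kif20a, with filled circles for 5 mg/kg and open circles for 1 mg/kg. Hadha climbs and Manf falls with the score in both groups, and Ehhadh is apart between the doses along the whole score.

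The same doses were compared in other rats after 14 and 28 days, where 1371 genes (11.3%; 6.16% higher and 5.11% lower) and 453 genes (3.72%; 2.04% higher and 1.68% lower) were called. On day 14 the 5 mg/kg libraries had library scores of -1.11, -0.66, 0.91, -1.22 and -2.32. The 1 mg/kg libraries of that day had 1.06, 1.17, 0.53, -0.85 and 0.67, so the doses were less balanced on the score than on day 7. Counts of these later calls without the score are not given here, and no later-day rat was left out singly. Of the 727 genes higher at day 7, 654 (90%) were also on the higher side at day 14 and 678 (93.3%) at day 28, where 52.1% and 52.6% of all genes tested were. Of the 534 lower genes, 469 (87.8%) and 501 (93.8%) were on the lower side. The genes called higher on both days 7 and 14 numbered 298, which is 41% of the day 7 list and 39.8% of the day 14 list, and those shared by days 7 and 28 numbered 153, 21% and 61.7% of the lists. The genes called lower on both days 7 and 14 numbered 156 (29.2% and 25.1% of the lists), and on days 7 and 28 94 (17.6% and 45.9%). The median change of the 727 genes was 0.71 at day 7, 0.40 at day 14 and 0.35 at day 28. That of the 534 genes was -0.71, -0.40 and -0.37 on the same days. Both sets were picked by their day 7 calls, so smaller medians in other rats do not by themselves show that the difference faded.

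A change in the dose difference between days was called in few genes, 7 of 12167 (0.0575%) for each later day, against 1467 and 718 genes at an unadjusted p under 0.05. For day 28 against day 7 all 7 had a smaller difference at day 28. Acot1 had 687 ± 130 CPM at 5 mg/kg and 16.1 ± 6.46 CPM at 1 mg/kg on day 7, against 732 and 224 CPM on day 14 and 493 and 244 CPM on day 28. Its dose difference was thus 5.30 ± 0.43 on day 7, 1.44 ± 0.37 on day 14 and 0.95 ± 0.35 on day 28 (adjusted p of the change = 2e-05 and 8.3e-07). The 1 mg/kg mean was higher on the later days, while the 5 mg/kg mean was near its day 7 value on day 14 and lower on day 28. Ehhadh went the same way, with 13170, 13508 and 15245 CPM at 5 mg/kg and 2309, 4848 and 7747 CPM at 1 mg/kg on days 7, 14 and 28, and a dose difference of 2.61 ± 0.20, 1.77 ± 0.21 and 1.02 ± 0.19 (day 28 against 7, adjusted p = 0.0012). Cacna2d3 (adjusted p = 0.001) and Aig1 (adjusted p = 0.0022) were also called. In Cacna2d3 the 5 mg/kg mean was 19.9 CPM on day 7 and 6.30 CPM on day 28, a lower level of the higher dose at the later day. Dnajc5b was called too (adjusted p = 0.0027). The number called for day 28 was 16 without rat 5 of the day 7 5 mg/kg group, and 15 without rat 2 or without rat 4 of the day 7 1 mg/kg group.

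For day 14 against day 7, 6 of the 7 genes (0.0493% of those tested) had a smaller or opposite difference at day 14, among them Cdk1, Cdkn3, Pttg1 and Nuf2. Cdk1 and Cdkn3 belong to the list of cell division genes, and Pttg1 and Nuf2 to none of the lists. Nuf2, a kinetochore protein gene, was named after its values were seen. Cdk1 averaged 5.66 ± 2.45 CPM at 5 mg/kg and 1.57 ± 0.440 CPM at 1 mg/kg on day 7, against 0.785 and 1.79 CPM on day 14. Its change was 1.49 ± 0.44 on day 7 and -1.70 ± 0.53 on day 14 (adjusted p of the change = 0.047). Pttg1, the securin, and Cdkn3, a phosphatase of cyclin-dependent kinases, turned in the same way, with 1.62 ± 0.49 and 1.71 ± 0.52 on day 7 and -2.19 ± 0.62 and -2.14 ± 0.65 on day 14 (adjusted p = 0.027 and 0.046). At day 7 the calls of Cdkn3 and Pttg1 were lost without rat 1 or 2 of the 5 mg/kg group or rat 1, 3 or 4 of the 1 mg/kg group, that of Cdk1 without rat 2 of the 5 mg/kg group or rat 3 or 4 of the 1 mg/kg group, and that of Nuf2 without rat 3 or 4 of the 1 mg/kg group. The number of genes with a changed dose difference at day 14 was 4, 1, 12 and 24 without rats 1, 2, 4 and 5 of the day 7 5 mg/kg group and 1, 2 and 3 without rats 1, 3 and 4 of the day 7 1 mg/kg group. Of the 7 genes, 1 was still called without rat 2 of the 5 mg/kg group or rat 1 of the 1 mg/kg group, and 1 without the library score. ENSRNOG00000030478, a gene without a symbol in the deposited table, was the 1 gene (0.00822%) whose difference was higher on day 14 (1.57 ± 0.36, against -0.88 ± 0.34 on day 7).

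**Figure D5:**
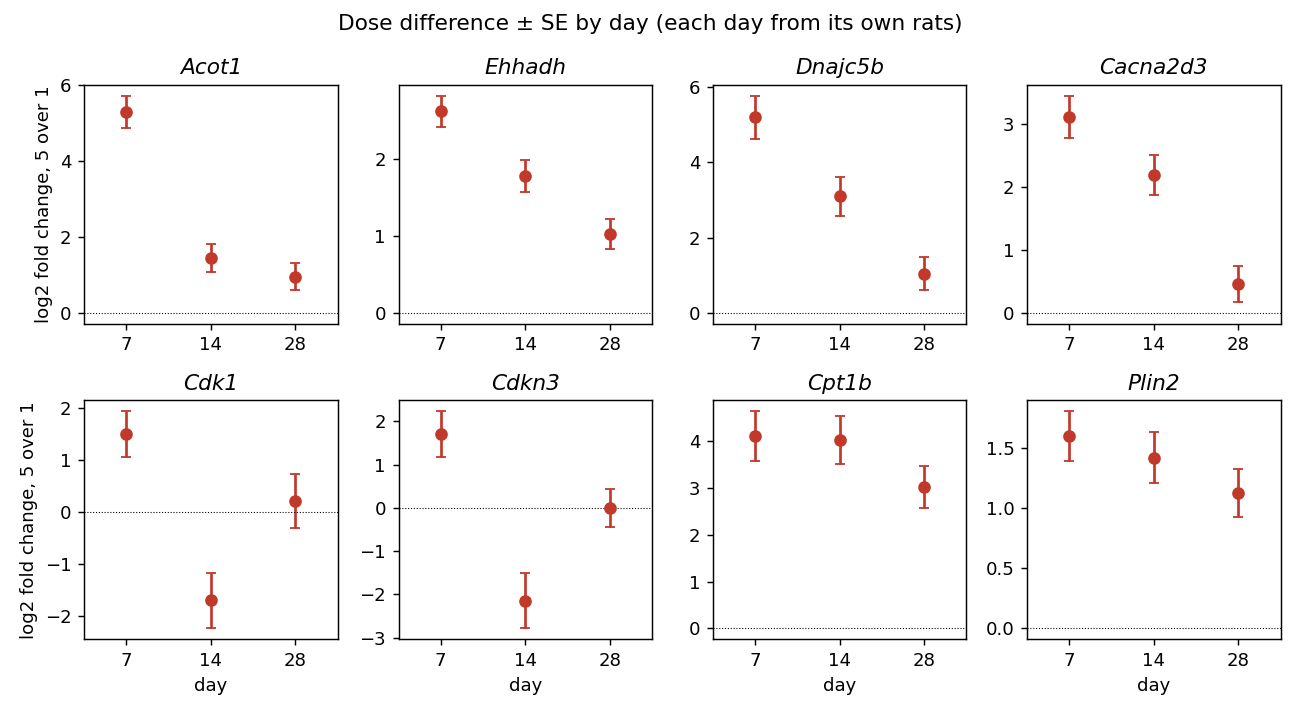
Log2 fold change of 5 over 1 mg/kg ± SE on days 7, 14 and 28 for 8 genes, each day from its own rats. Acot1, Ehhadh, Dnajc5b and Cacna2d3 shrink with the days, Cdk1 and Cdkn3 turn below 0 on day 14, and Cpt1b and Plin2 stay above 0.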

How the data were processed

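RNA-seq of 60 rat livers was used, 5 per group, with Rnor_6.0 as the genome build per the labels. The deposited values are raw counts per gene, made with bcl2fastq 2.20.0.422, Trimmomatic 0.33, STAR 2.5.2b and featureCounts of Subread 1.6.0, per the submitters' processing notes. The library kit keeps strand, and the strand setting of the counting is not given in the sources used here, so overlapping and antisense genes are uncertain. Genes without a symbol (10602) held 1.39% of the counts. Genes passing edgeR's filter (minimum count 10, minimum total 15) were tested: 12167 of 32883.

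A group-means model over all 60 libraries, with the library score as a covariate, was fitted with edgeR 4.0.16 (R 4.3.3; robust quasi-likelihood test, TMM, Benjamini-Hochberg adjustment over all genes tested, threshold 0.05). The score is the mean standardized log2 CPM (prior count 2), signed, of the 500 genes that correlate most with the first principal axis of the deviations from the group means. Single values were compared by an exact permutation test. The code was tested on simulated data. Alternatives included DESeq2 1.42.0 and limma 3.58.1. The 60 libraries had 7965497 to 24770119 counts. Within the compared groups, replicates differed by more than sampling noise (lowest chi-square per degree of freedom 35.5).

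Named genes were up to 12 in each direction with the largest change among called genes with a symbol, a mean of at least 1 CPM and no overlap, a fixed set, the 4 smallest p-values of each list and of each change between days. Others are said to be picked after their values were seen. The members and the 42 lists were chosen with earlier results of these data known. Of 1087 list entries, 1019 were found in the table. No genome or annotation of the deposited build was used here. Promoters are RefSeq (GRCr8). Some genes of the fixed set and of the lists are not reported here by name.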

Additional observations from a re-analysis of the deposited data

Results flagged for a closer look

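Among 292 sets of 5 rats (146 named genes in 2 groups), 18 had 1 liver whose gap to the next, on the log2 scale with 0.1 CPM added, took more than 0.71 of the group's range, and chance marks about 1 in 20 sets. At 5 mg/kg the livers set apart were rat 1 for Acot1 (0.733), C1s (0.788) and Pex11g (0.745), rat 2 for Vnn1 (0.785), rat 4 for Tsku (0.727), and rat 5 for Dio1 (0.744) and Aqp3 (0.715). At 1 mg/kg they were rat 1 for Angptl4 (0.729), rat 2 for Serpina1 (0.838), rat 3 for Lpl (0.771), and rat 5 for Insig1 (0.850) and Ucp3 (1.000, its single count). Rat 4 of the 1 mg/kg group stood apart in Ehhadh (0.713), Cyp2b1 (0.740), Epcam (0.772), Aldh1a1 (0.784), LOC108348093 (0.915) and Sqle (0.896).

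The dose difference changed between days, by the test of the change itself on the log2 scale. From day 7 to day 28 it changed by -4.34 in Acot1, -4.16 in Dnajc5b, -2.66 in Cacna2d3, -2.40 in Slc25a34, -1.59 in Ehhadh and -0.97 in Aig1. From day 7 to day 14 it changed by -3.86 in Acot1, -3.85 in Cdkn3, -3.81 in Pttg1, -3.18 in Cdk1, -2.94 in Nuf2, -1.27 in Acp5 and 2.45 in ENSRNOG00000030478.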

How the results depend on the processing

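No paired analysis was possible because the labels give the rats no numbers that are shared across groups. Of the 131 genes named in the text that were called, none changed sign in any of the 20 other settings, and 38 lost their call without the library score, 16 without rat 2 of the 5 mg/kg group and 15 in a fit of the compared groups alone (126 tested there). The count of 1261 called genes was 290 without the score, 701 (367 higher and 334 lower) in the compared groups alone, 787 with a fold change of at least 1.5, and 784 to 1438 when 1 rat was left out. The other counts were 873 to 1431, and 963 without the libraries that scored under -1.5, a setting chosen after seeing the data. The day 14 change (7 genes) gave 1 without the score, 18 with a score from ribosomal protein genes, 3 with DESeq2 size factors or with no filter on low counts, 55 with DESeq2, 33 with only the time points compared, 4 with only the groups compared, 1 without the low-scoring libraries and 1 to 24 leaving out 1 rat. The day 28 change (7 genes) gave 1 without the score, 28 with DESeq2, 4 with limma-voom, 2 with the groups compared and 6 to 16 leaving out 1 rat. For 1 mg/kg over vehicle (183 genes) the counts were 14 without the score, 109 with no filter, 2.8e+02 with DESeq2 (172 higher and 106 lower), 98 with the time point alone, 119 with a fold of at least 1.5 and 80 to 215 leaving out 1 rat. For 5 mg/kg over vehicle (2256 genes) they were 747 without the score, 1278 with a fold of at least 1.5 and 1891 to 2368 leaving out 1 rat. The rat left out was always from the 5 or 1 mg/kg group of day 7, so no vehicle or later-day rat was left out singly. The library score difference was -1.06 to -0.363 and the mitochondrial share difference -1.70 to -0.425 percentage points leaving out 1 rat. Values that changed sign belonged to genes not called: without the score Ppara was at -0.27, Cpt1a at -0.15, Fasn at -0.13 and Cyp8b1 at -0.26. Cyp8b1 was also at -0.019 with the ribosomal score, -0.21 without the low-scoring libraries and -0.19 to 0.27 without 1 rat. Mt-nd1 was at 0.025 with limma-voom, 0.14 with the time point alone, 0.095 with the groups compared, 0.15 without the low-scoring libraries and -0.20 to 0.097 without 1 rat. The cause was not tested. The depth of 8715022 to 19159502 counts limits genes of few CPM, such as Kif20a.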
